A study of Mus musculus with 2 samples.

Results

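The vascular endothelial growth factor (VEGF) and angiopoietin genes described here are 4 VEGF family ligands (Vegfa, Vegfb, Vegfc and Pgf), the 3 VEGF receptors (Kdr, Flt1 and Flt4), 2 angiopoietins (Angpt1 and Angpt2) and the angiopoietin receptor Tek. These 10 genes of 55536 annotated genes were taken by symbol. They were measured by total RNA sequencing of the whole heart of 2 female mice, 10 days old, of strain B6CASTF1/J, an F1 hybrid of laboratory mice (C57BL/6J) with the wild-derived CAST/EiJ strain. Each animal gave 1 library from 300 ng of RNA, and the libraries are called replicates 1 and 2. The labels list both under a single donor record, with no treatment and no transgene. The hearts differed in blood, atrial and fat markers, as given below. There is 1 group and no comparison between conditions, and the genes are described by their levels, by ratios within a library, by transcript, and by how far the 2 hearts differed. The libraries held 40184481 and 39620543 expected counts on annotated genes in replicates 1 and 2. An expected count is a read count in which a read that fits several transcripts is shared between them.

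VEGF ligands are secreted dimers that bind receptor tyrosine kinases on endothelial cells. Kdr (VEGFR2) carries most of the signal for endothelial growth and sprouting. Flt1 (VEGFR1) binds Vegfa, Vegfb and Pgf, signals weakly, and is also made as a soluble receptor that holds ligand away from Kdr. Flt4 (VEGFR3) binds Vegfc and is known best from lymphatic vessels. Angiopoietin 1, made by cells around the vessel, activates the endothelial receptor Tek (TIE2) and keeps vessels quiet, whereas angiopoietin 2 acts on the same receptor as a weaker, context-dependent ligand. In heart, Vegfa is made largely by cardiomyocytes, and Vegfb is abundant there.

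The Vegfa forms differ in the exons between exon 5 and the last exon, which encode basic stretches that hold the protein to heparan sulphate. The bases are shown because these exons define the Vegfa types whose transcript shares are given below. They were read from the GENCODE transcripts on GRCm38 (mm10), 5′ to 3′ on the minus strand, and capitals mark Lys and Arg codons, including the part of a codon that is split by a splice junction.
Vegfa exon 6, chr17:46022277-46022348: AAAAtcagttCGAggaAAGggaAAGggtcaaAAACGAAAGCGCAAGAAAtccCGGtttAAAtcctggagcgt
Vegfa exon 7, chr17:46020991-46021122: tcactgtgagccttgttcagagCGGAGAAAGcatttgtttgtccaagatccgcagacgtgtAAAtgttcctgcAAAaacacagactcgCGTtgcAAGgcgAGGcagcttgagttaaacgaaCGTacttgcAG
Vegfa last exon, coding part, chr17:46018858-46018879: AtgtgacAAGccaAGGCGGtga

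Exon 6 had 12 Lys or Arg codons of 24 and exon 7 had 10 of 44 (22.7%), a codon being counted where its middle base lies. With both exons, the reading frame from the ATG has 214 codons. With exon 7 alone it has 190, and with neither it has 146. These are the frames of the mouse forms named VEGF188, VEGF164 and VEGF120, in that order. The joins that tell them apart are given with the end of exon 5 in lower case and the next exon in capitals.
Vegfa-207, exons 5 to 6 (chr17, 46024065 to 46022348): aacaaagccagaaaaAAAATCAGTTCGAGG
Vegfa-202, exons 5 to 7 (chr17, 46024065 to 46021122): aacaaagccagaaaaTCACTGTGAGCCTTG
Vegfa-201, exon 5 to the last exon (chr17, 46024065 to 46018879): aacaaagccagaaaaATGTGACAAGCCAAG

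The soluble form of Flt1 arises where exon 13 is not spliced to exon 14 but reads on into the intron. Its transcript, Flt1-203, has 13 exons and 688 codons, against 30 exons and 1333 codons in the full-length Flt1-202. The join at the end of exon 13 (chr5, minus strand) is shown with exon 13 in lower case, and then the coding extension up to its stop, with Lys and Arg codons in capitals.
Flt1-203, exon 13 into the intron (147639225 to 147639224): aagttctcgttagagGTGAGCACTGCGGCA
Flt1-202, exons 13 to 14 (147639225 to 147634523): aagttctcgttagagATTCGGAAGCGCCAC
Flt1-203 coding extension, chr5:147639130-147639224: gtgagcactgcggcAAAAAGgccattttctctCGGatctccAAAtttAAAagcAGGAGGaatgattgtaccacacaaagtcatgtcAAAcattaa

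Vegfb has a short and a long exon 6. The long one adds 101 bases at its start, which change the reading frame, so that Vegfb-201 has 207 codons and Vegfb-202 has 188. These are the frames of the forms named VEGF-B186 and VEGF-B167. The added bases hold 2 Lys or Arg codons of 33, counted as above, with such codons in capitals.
Vegfb-201, exon 5 to long exon 6 (chr19, minus strand, 6985805 to 6985596): tgtgaagccagacagGGTTGCCATACCCCA
Vegfb-202, exon 5 to short exon 6 (chr19, minus strand, 6985805 to 6985495): tgtgaagccagacagCCCCAGGATCCTCTG
Vegfb-201 added bases, chr19:6985496-6985596: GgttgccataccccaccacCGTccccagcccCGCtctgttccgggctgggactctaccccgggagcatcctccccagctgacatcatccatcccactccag

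Vegfb and Vegfa were the ligands with most RNA, Kdr was the receptor with most, and Angpt1 exceeded Angpt2 in both hearts. Levels are in TPM, a relative abundance corrected for length, from the deposited gene table unless kallisto is named, and are given as mean ± SD with n = 2. Of the 10 genes, 9 reached 1 TPM in both libraries, the level taken as detected, while 53.4% of 21951 protein-coding genes did. The exception was Pgf. Rescaled over protein-coding genes only, the levels were higher throughout, with Vegfa at 167.8 TPM and Kdr at 121.7 TPM on average. In bulk tissue, fewer cells of a type and less RNA per cell cannot be told apart.

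**Figure D1:**
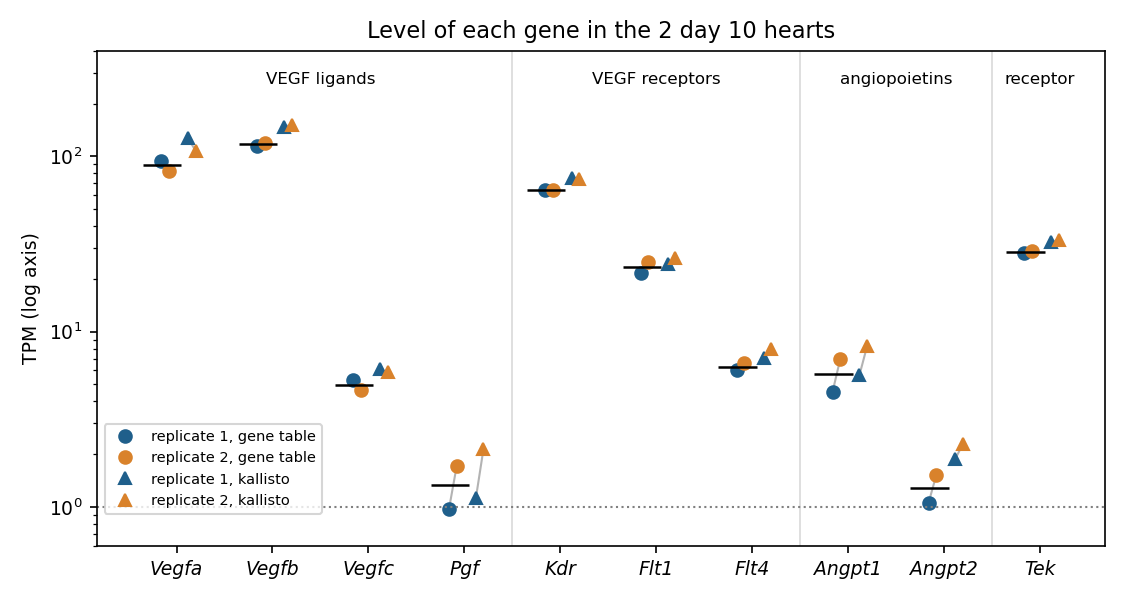
Level of each of the 10 genes in TPM (log axis), by role, in replicate 1 (blue) and replicate 2 (orange), from the gene table (circles, with the mean as a bar) and from kallisto (triangles). The dotted line is at 1 TPM. Vegfb, Vegfa and Kdr lie highest, and Pgf and Angpt2 lowest, near the line.

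Vegfb, a ligand of Flt1 that lies at chr19:6982473-6987651 on the minus strand, had 114.69 TPM in replicate 1 and 119.11 TPM in replicate 2, a mean of 116.9 ± 3.13 TPM. It ranked 548 in replicate 1 and 538 in replicate 2 among protein-coding genes. Vegfa, the main ligand of Kdr, at chr17:46016993-46032369 on the minus strand, had 94.49 TPM in replicate 1 and 82.83 TPM in replicate 2, a mean of 88.7 ± 8.24 TPM. The Vegfa values lay below those of Vegfb in each heart, and the log2 ratio of Vegfa to Vegfb was -0.40 ± 0.17. A pair is read as apart where both libraries have the same sign and the mean log2 ratio of TPM + 0.1 exceeds 3 SD, since no exact permutation test of 2 libraries can give a p under 0.5. Vegfa and Vegfb were not apart by that measure, which was taken on gene totals. Coding transcripts made 58.5% and 61.5% of that total for Vegfa in replicates 1 and 2, and 98.5% and 99.3% for Vegfb.

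Vegfc, the lymphatic ligand, at chr8:54077606-54187096 on the plus strand, had 5.29 TPM in replicate 1 and 4.65 TPM in replicate 2. Pgf, placental growth factor, which binds Flt1, at chr12:85166635-85177790 on the minus strand, had 0.97 TPM in replicate 1 and 1.70 TPM in replicate 2, from 43 and 76 expected counts. Both lay far below the 2 leading ligands. Vegfa exceeded Vegfc 17.5-fold (log2 ratio 4.13 ± 0.0053) and Pgf 63.8-fold (log2 ratio 5.996 ± 0.66). Vegfb exceeded Pgf 84.3-fold (log2 ratio 6.40 ± 0.49). All 3 pairs were apart. Summed over the VEGF ligands with Vegfd, Vegfb made 54.9 ± 2.78% of the TPM and Vegfa 41.6 ± 2.88%. Vegfc made 2.33 ± 0.157%, Pgf 0.629 ± 0.257% and Vegfd 0.608 ± 0.0021%. These are shares of gene totals, which for Vegfa include the retained-intron transcripts described below.

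Kdr, at chr5:75932827-75978458 on the minus strand, had 64.60 TPM in replicate 1 and 64.07 TPM in replicate 2, a mean of 64.3 ± 0.375 TPM. Flt1, at chr5:147561604-147726011 on the minus strand, had 21.62 TPM in replicate 1 and 24.81 TPM in replicate 2, a mean of 23.2 ± 2.26 TPM. Flt4, at chr11:49609263-49652739 on the plus strand, had 6.0 TPM in replicate 1 and 6.59 TPM in replicate 2, a mean of 6.30 ± 0.417 TPM. The order Kdr, Flt1, Flt4 was the same in both hearts and no 2 of these receptors overlapped. Kdr exceeded Flt1 2.77-fold (log2 ratio 1.47 ± 0.15) and Flt4 10.1-fold (log2 ratio 3.33 ± 0.10). Flt1 exceeded Flt4 3.64-fold (log2 ratio 1.86 ± 0.046). Kdr made 68.6 ± 2.08% of the TPM of the 3 receptors, Flt1 24.7 ± 1.80% and Flt4 6.70 ± 0.280%.

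Tek, at chr4:94739289-94874976 on the plus strand, had 27.98 TPM in replicate 1 and 28.81 TPM in replicate 2, a mean of 28.4 ± 0.587 TPM. It was lower than Kdr, which exceeded it 2.26-fold (log2 ratio 1.18 ± 0.038). It was also lower than Tie1, the orphan receptor that pairs with it, which had 48.48 and 48.49 TPM in replicates 1 and 2. The log2 ratio of Tek to Tie1 was -0.77 ± 0.030, and both pairs were apart.

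Angpt1, at chr15:42424723-42676977 on the minus strand, had 4.54 TPM in replicate 1 and 6.97 TPM in replicate 2, a mean of 5.76 ± 1.72 TPM. Angpt2, at chr8:18690263-18741562 on the minus strand, had 1.05 TPM in replicate 1 and 1.51 TPM in replicate 2, a mean of 1.28 ± 0.325 TPM. In TPM both ligands were lower in replicate 1 and their ratio was close in the 2 hearts. The Angpt2 difference did not pass in counts (exact binomial test, adjusted p = 0.447). Its coding transcript Angpt2-201 had 1.05 and 1.19 TPM in replicates 1 and 2. With expected counts not scaled by length, the log2 ratio of Angpt1 to Angpt2 was 2.51 ± 0.276. Angpt1 exceeded Angpt2 4.21-fold (log2 ratio 2.07 ± 0.086), and the pair was apart. With Angpt4, the third angiopoietin of the mouse, Angpt1 made 80.02 ± 0.131% of the TPM, Angpt2 17.9 ± 0.799% and Angpt4 2.06 ± 0.668%. Angpt4 itself had 0.09 TPM in replicate 1 and 0.22 TPM in replicate 2, below the detection level. By kallisto, Angpt1 made 74.2% of the 3 in replicate 1 and 76.4% in replicate 2, and exceeded Angpt2 3.19-fold. The methods thus differed by more than the spread between the hearts. Angpt2 lies wholly inside the span of Mcph1 on the opposite strand, which had 2.54 and 2.46 TPM in replicates 1 and 2, and the labels do not say whether reads were counted by strand. Angpt1 overlaps the antisense gene Gm17473, which had 0.14 and 0.34 TPM in replicates 1 and 2.

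Ligand and receptor levels were also set side by side. In gene totals, Vegfa exceeded Kdr 1.37-fold (log2 ratio 0.46 ± 0.13), which was apart. Coding transcripts held 58.5% and 61.5% of the Vegfa TPM in replicates 1 and 2, against 95.0% and 96.5% for Kdr. With coding transcripts only, Vegfa lay below Kdr in both hearts, but by kallisto in replicate 2 only. Angpt1 had less RNA than Tek, with a log2 ratio of -2.31 ± 0.40, also apart. Vegfc and Flt4 were not apart, with a log2 ratio of -0.34 ± 0.22. In all, 11 of 13 pairs were apart, and kallisto also gave 11, with the same gene higher in each of the 13 pairs. With expected counts not scaled by length, the log2 ratio of Vegfa to Vegfb turned to 0.40 and that of Vegfa to Kdr to -1.12. The 10 genes ran from high to low in the order Vegfb, Vegfa, Kdr, Tek, Flt1, Flt4, Angpt1, Vegfc, Pgf and Angpt2. Of the 9 neighbouring pairs in that order, 3 were apart, namely Vegfa and Kdr, Kdr and Tek, and Flt1 and Flt4. The other 6 were not apart by the 3 SD measure, although the gene placed higher was so in both hearts for Vegfb and Vegfa (log2 ratio 0.40 ± 0.17), Tek and Flt1 (0.29 ± 0.11) and Vegfc and Pgf (1.87 ± 0.66). With kallisto 4 neighbours were apart, Tek and Flt1 being the pair added. Kallisto kept the order of 8 of the 9 neighbours, and placed Angpt2 above Pgf.

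The mouse Vegfa gene has 13 annotated transcripts, of which 8 are coding and 5 retain an intron. Vegfa-202, the VEGF164 type, led in both libraries by both methods. The first transcript table gave it 35.6% of the Vegfa TPM in replicate 1 and 36.1% in replicate 2, while kallisto gave 28.8% and 29.8%. Vegfa-207, the VEGF188 type, had 11.35% in replicate 1 and 14.7% in replicate 2, with 12.5% and 18.7% by kallisto. Vegfa-201, the VEGF120 type, had 10.5% in replicate 1 and 10.6% in replicate 2, with 9.64% and 10.9% by kallisto. The VEGF164 type was thus ahead of both other coding types in every one of the 4 estimates, all of them shares of TPM. The VEGF188 type exceeded the VEGF120 type in each of these, but not in expected counts. Those were 629.07 and 702.07 for Vegfa-207 and 830.01 and 720.81 for Vegfa-201 in replicates 1 and 2. The transcripts also differ at their ends, since the first exon is shorter in Vegfa-201 and the last exon is shorter in Vegfa-207. Vegfa-202 has 3451 bases, Vegfa-207 has 1973 and Vegfa-201 has 2765, so the shares do not rest on exons 6 and 7 alone.

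Among the coding transcripts alone, those with exon 7 but not exon 6 made 60.9% of the TPM in replicate 1 and 58.7% in replicate 2, a mean of 59.8 ± 1.51%. Those with both exons made 19.4% and 24.0%, a mean of 21.7 ± 3.23%. Those with neither made 18.0% and 17.3%, a mean of 17.6 ± 0.478%. The single transcript with exon 6 but not exon 7 made 1.75% and 0%. By kallisto the means were 49.96 ± 1.74% with exon 7 alone, 28.5 ± 2.84% with both and 21.5 ± 1.10% with neither. The order of the types in TPM was the same by both methods. In expected counts the types with both exons made 14.1 ± 2.14% and those with neither 16.3 ± 0.404%, so that the order of these 2 turned, and by kallisto counts they made 18.4 ± 2.67% and 18.3 ± 0.101%. In TPM the share of the leading type differed by more than the spread between the hearts. Vegfa-207 and Vegfa-202 are annotated with a coding region that begins 534 bases upstream of the ATG, at a CTG, which is the known start of a longer VEGF protein. Vegfa-201 is annotated from the ATG.

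The retained-intron transcripts of Vegfa took 41.5% of its TPM in replicate 1 and 38.5% in replicate 2. They held only 9.89% and 9.59% of its expected counts, since they are short and TPM divides by length. Vegfa-209 was the largest of them, with 21.7% of the TPM in replicate 1 and 18.0% in replicate 2, from 233.28 and 166.67 expected counts. Kallisto gave Vegfa-209 10.02% and 9.05%. Vegfa-206 had 14.2% and 8.8%, Vegfa-208 had 4.15% and 4.52%, and Vegfa-210 had 1.49% and 7.2%. Vegfa-205 had 0% in both libraries in the first table but 8.11% and 5.53% by kallisto, so the shares of these short transcripts rest on the method.

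**Figure D2:**
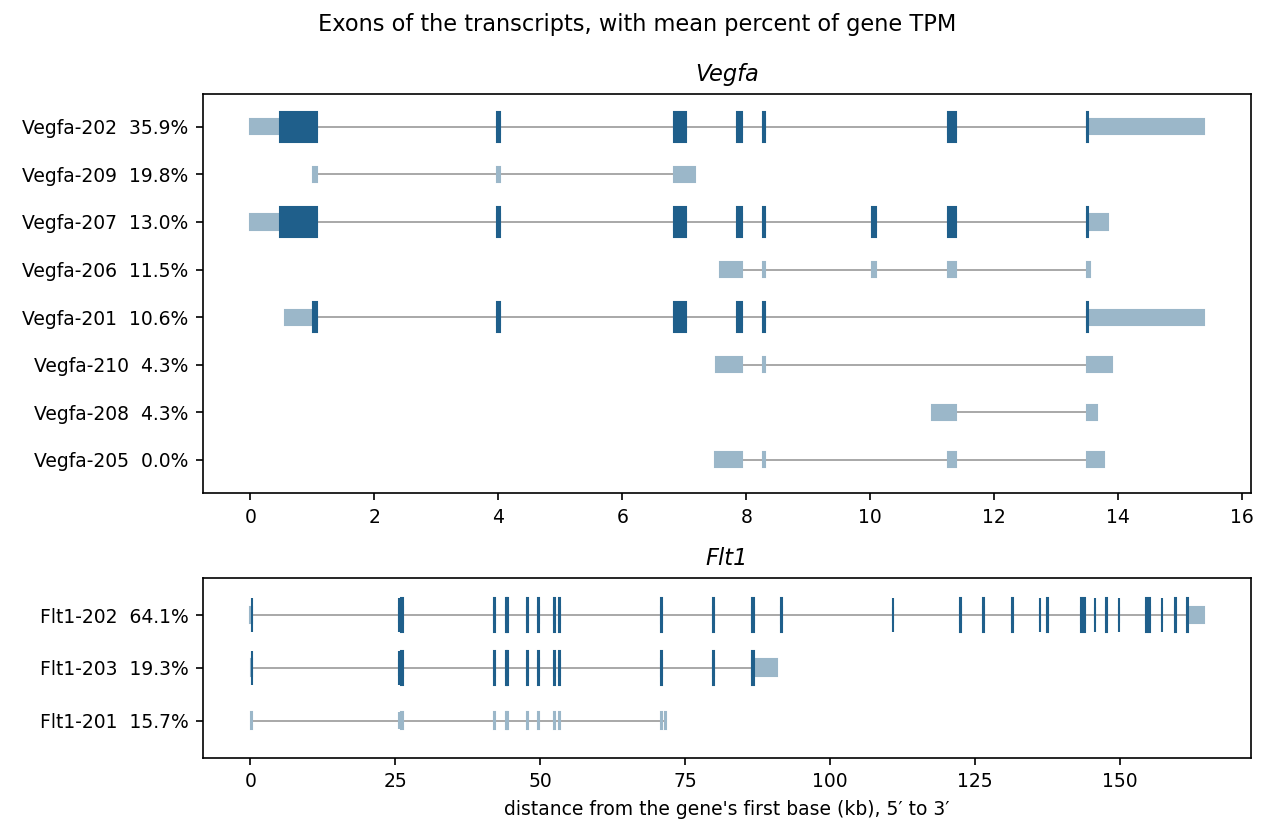
Exons of the Vegfa and Flt1 transcripts with at least 5% of the gene's TPM in any estimate, by distance in kb from the gene's first base, with the mean percent of the gene's TPM in the first transcript table. Dark blocks are coding and pale blocks are not. Vegfa-202, Vegfa-207 and Vegfa-201 differ in the 2 coding exons before the last one. They also differ at their ends, with a shorter first exon in Vegfa-201 and a shorter last exon in Vegfa-207. Flt1-203 ends after exon 13 of the full-length transcript.

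Flt1 has 6 annotated transcripts, of which 3 carried nearly all of its RNA. The full-length Flt1-202 had 64.8% of the Flt1 TPM in replicate 1 and 63.3% in replicate 2. The soluble-receptor transcript Flt1-203 had 20.2% in replicate 1 and 18.3% in replicate 2, a mean of 19.3 ± 1.35%. It held 848.25 expected counts in replicate 1 and 864.16 in replicate 2. Kallisto gave Flt1-203 21.8% and 21.3%. Of the sum of its 2 coding transcripts, the soluble one made 23.1 ± 0.932% of the TPM in the first table and 23.0 ± 0.495% by kallisto, so the methods differed by less than the spread between the hearts. Flt1-201, which is not annotated as coding and ends in an exon of its own after sharing the early exons, had 14.1% and 17.3% in the first table but 3.81% and 4.51% by kallisto.

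In TPM, Flt1-202 had 14.01 in replicate 1 and 15.71 in replicate 2, and Flt1-203 had 4.37 and 4.55. The authors' bounds for Flt1-203 ran between 3.93 and 4.63 TPM in replicate 1 and between 4.11 and 4.82 TPM in replicate 2, and so overlapped. Those for Flt1-202 ran between 13.2 and 14.3 TPM in replicate 1 and between 14.8 and 16.0 TPM in replicate 2, and did not. Because exon 13 of Flt1-203 is 4375 bases long and 309 bases in Flt1-202, most bases that tell the soluble transcript apart lie in its non-coding end.

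**Figure D3:**
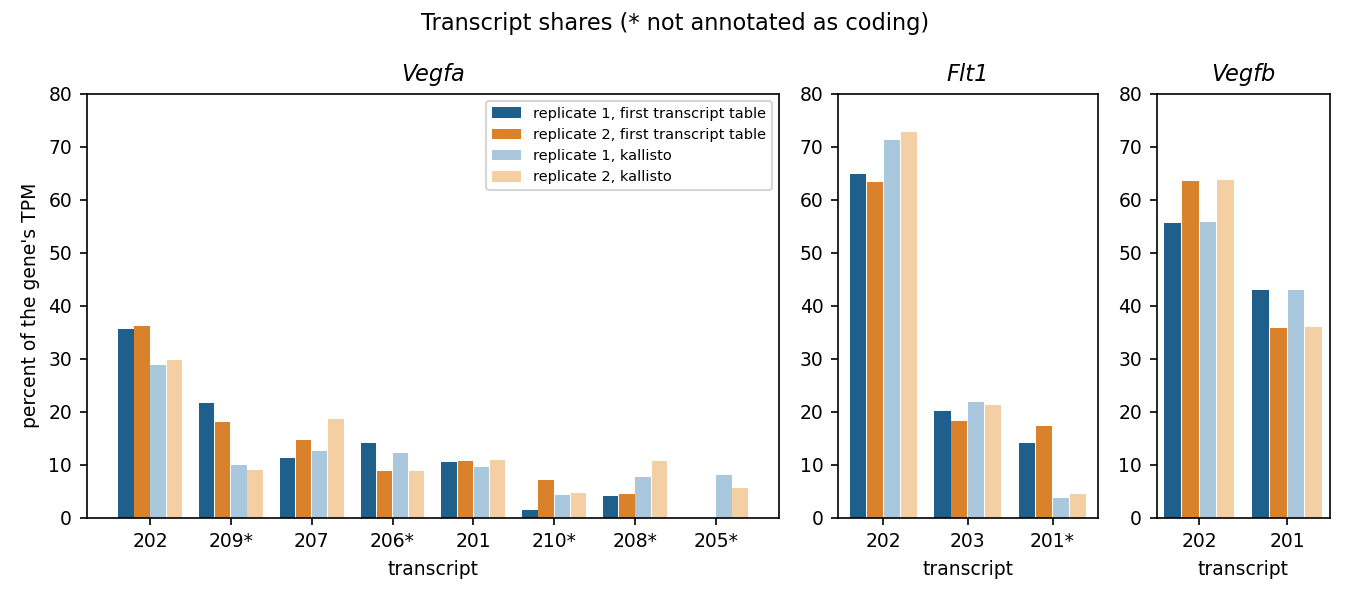
Percent of each gene's TPM in the Vegfa, Flt1 and Vegfb transcripts with at least 5% in any estimate, for replicate 1 and replicate 2 in the first transcript table (dark bars) and by kallisto (pale bars); an asterisk marks transcripts not annotated as coding. The Vegfb bars are nearly the same by both methods, whereas Flt1-202, Flt1-201, Vegfa-209 and Vegfa-205 differ between the methods.

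Vegfb was divided between 2 coding transcripts. Vegfb-202, the VEGF-B167 type, had 63.76 and 75.58 TPM in replicates 1 and 2. Vegfb-201, the VEGF-B186 type, had 49.21 and 42.66 TPM. The first was thus lower and the second higher in replicate 1, while the gene's total was close in the 2 hearts. Of the 2 forms together, Vegfb-202 made 56.4% in replicate 1 and 63.9% in replicate 2, and kallisto gave 56.5% and 64.0%. The authors' bounds for Vegfb-202 ran between 57.2 and 66.98 TPM in replicate 1 and between 69.3 and 78.9 TPM in replicate 2, without overlap. For Vegfb-201 they ran between 44.2 and 52.8 TPM in replicate 1 and between 37.7 and 45.8 TPM in replicate 2, with overlap. These bounds cover the assignment of reads within a library, not the spread between animals, and no test over animals was possible.

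Of the other genes, Tek was divided among 3 coding transcripts. Tek-203 had 74.2% of the TPM in replicate 1 and 74.7% in replicate 2. Tek-202, which lacks exon 4, a coding exon of 153 bases at chr4:94799127-94799279, had 12.6% and 10.9%. Tek-201, whose exon 14 is 3 bases shorter, had 11.6% and 11.3%. The transcripts also differ in length beyond these parts, with 4654 bases in Tek-203, 4549 in Tek-202 and 4176 in Tek-201. The Tek shares differed little between the hearts. Kallisto gave Tek-202 5.75% and 6.46%. Kdr-201 made 95.0% and 96.5% of the Kdr TPM, and Flt4-201 made 96.0% and 96.95% of the Flt4 TPM, in replicates 1 and 2. Angpt1-201 made 94.0% and 95.2%, with the rest in the non-coding Angpt1-202.

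The low genes were less settled by transcript. Angpt2-201 made 100% of the TPM in replicate 1 and 79.1% in replicate 2, with the rest in the non-coding Angpt2-202, and kallisto gave Angpt2-202 30.9% and 42.9%. Vegfc-201 made 78.8% and 82.6%, while the rest was given to Vegfc-203 in replicate 1 and to Vegfc-202 in replicate 2. Pgf-201 made 92.9% and 92.4% in the first table but 39.3% and 61.8% by kallisto, which gave Pgf-204 48.0% and 22.1%. Pgf-203 had 7.06% in replicate 1 and Pgf-202 had 7.62% in replicate 2, from 1.26 and 4.48 expected counts. Pgf was the exception among the 10 genes, of which 9 had the same leading transcript in both libraries by both methods. Of the 42 annotated transcripts of these genes, 29 reached 5% of the gene's TPM in any of the 4 estimates.

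None of the 10 genes differed 2-fold between the hearts. All 10 were tested with the exact binomial test, and 0 met the call, which asked for a ratio of 2-fold or more together with an adjusted p below 0.05, against 1.27% of 16517 genes tested (209 genes). By adjusted p alone, without a fold, 4 of the 10 passed (5 at an unadjusted p below 0.05), against 17.3% of all genes tested. Genes with more counts pass at smaller ratios, and these shares were not matched for depth. Angpt1, Pgf and Flt1 were lower in replicate 1, a direction taken by 9.96% of genes tested, and Vegfa was higher in replicate 1, a direction taken by 7.33%. The test compares the reads of 2 libraries, so its p covers counting error only and says nothing of how female hearts vary at this age. The log2 ratio is replicate 1 over replicate 2 throughout, on the scale of counts relative to TMM library sizes with its counting SE.

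Angpt1 had 568 expected counts in replicate 1 and 862 in replicate 2. The log2 ratio was -0.64 ± 0.078, a 1.56-fold lower level in replicate 1 (exact binomial test, adjusted p = 4.7e-15). A ratio as large in either direction was found in 1.86% of detected genes. Pgf had a log2 ratio of -0.85 ± 0.27, 1.81-fold lower in replicate 1 (exact binomial test, adjusted p = 0.0148), a size reached by 0.857% of detected genes. Both stayed short of 2-fold and would be called at 1.5-fold.

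Flt1 had 4027 expected counts in replicate 1 and 4415 in replicate 2, a log2 ratio of -0.17 ± 0.031 (exact binomial test, adjusted p = 8.6e-07). Vegfa had 5553 expected counts in replicate 1 and 4978 in replicate 2, a log2 ratio of 0.12 ± 0.028 (exact binomial test, adjusted p = 3.7e-04). These are small ratios that the depth resolves, at 1.13-fold lower for Flt1 and 1.09-fold higher for Vegfa in replicate 1. As large a ratio was found in 27.7% of detected genes for Flt1 and in 42.5% for Vegfa.

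The log2 ratios of the other 6 were -0.01 ± 0.019 for Kdr, -0.03 ± 0.033 for Tek, -0.06 ± 0.032 for Vegfb, 0.13 ± 0.12 for Vegfc, -0.15 ± 0.059 for Flt4 and -0.25 ± 0.18 for Angpt2. Their adjusted p in the exact binomial test lay between 0.0574 for Flt4 and 0.884 for Kdr. In all, 8 of the 10 lay on the lower side in replicate 1, Kdr among them, whose sign turned with the scaling. The ratio was within 1.2-fold for 8 of the 10 genes and for 84.998% of detected genes. The median log2 ratio was -0.11 over the 10 genes and -0.0023 over all genes tested.

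**Figure D4:**
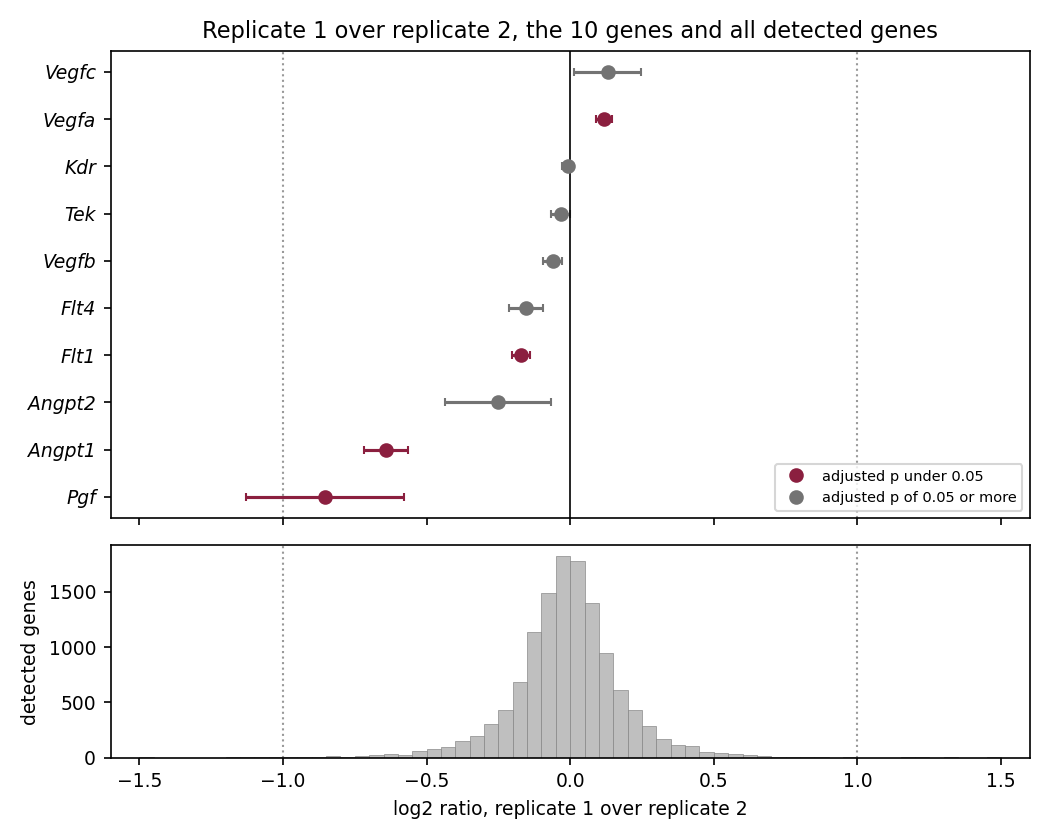
Above, the log2 ratio of replicate 1 over replicate 2 for each of the 10 genes with its counting SE as a bar, red where the adjusted p was under 0.05; below, the same ratio for all 12838 detected genes, with values beyond 1.5 in the end bars. Dotted lines mark a 2-fold ratio. Angpt1 and Pgf lie outside the bulk of genes and short of the line, and the other 8 lie within it.

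The hearts also differed in markers of other tissue parts. The 5 erythroid genes, led by Hbb-bs and Hba-a1, summed to 5269 TPM in replicate 1 and 12984 TPM in replicate 2, and all 5 were called lower in replicate 1; the globin copies share reads and are read as a sum. The 5 atrial genes, led by Nppa and Myl7, summed to 515.7 and 952.7 TPM in replicates 1 and 2, with all 5 lower in replicate 1 by adjusted p and 1 called. The 6 adipocyte genes, led by Ucp1 and Plin1, summed to 64.7 and 10.2 TPM, and all 5 that could be tested were called higher in replicate 1. The 4 platelet genes, led by Pf4 and Ppbp, summed to 16.1 and 22.1 TPM with 1 called lower in replicate 1. No gene was called among the 7 cardiomyocyte genes led by Myh6 and Myl2, which summed to 31642 and 33146 TPM, or among the 11 endothelial genes led by Cdh5 and Egfl7, which summed to 615.2 and 621.5 TPM. Nor was one called among the 3 endocardial genes led by Npr3 and Cytl1 (16.1 and 21.25 TPM), the 6 lymphatic genes led by Prox1 and Ccl21a (45.7 and 40.7 TPM), the 7 pericyte genes led by Rgs5 and Abcc9 (386.7 and 379.5 TPM), the 5 smooth muscle genes led by Acta2 and Tagln (267.8 and 306.7 TPM), the 7 fibroblast genes led by Col3a1 and Col1a1 (1616 and 1651 TPM) or the 7 macrophage genes led by C1qa and C1qb (49.2 and 59.3 TPM). By adjusted p alone, 2 cardiomyocyte genes were higher and 5 lower in replicate 1, as were 1 and 3 of the endothelial genes, 1 and 3 of the fibroblast genes and 1 and 1 of the lymphatic genes. By the same measure 2 endocardial, 3 smooth muscle and 2 macrophage genes were lower, with none higher, and 1 pericyte gene was higher. Of all genes tested, 7.33% were higher and 9.96% lower by that measure. Prox1 is also expressed in heart muscle. All 7 cardiomyocyte genes and all 11 endothelial genes were detected, and none of the 12 marker lists held a gene at 0 TPM in both libraries. The part of these cell types in the ratios of Angpt1, Pgf, Flt1 and Vegfa was not tested.

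Set against the endothelial genes, Kdr stood at 1.501 ± 0.0760 times their median TPM, Tek at 0.662 ± 0.0160, Flt1 at 0.540 ± 0.0283 and Flt4 at 0.147 ± 0.0032 times. The median itself was 41.6 TPM in replicate 1 and 44.3 TPM in replicate 2. Kdr was thus above the median endothelial gene in both hearts, and the other 3 receptors below it.

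**Figure D5:**
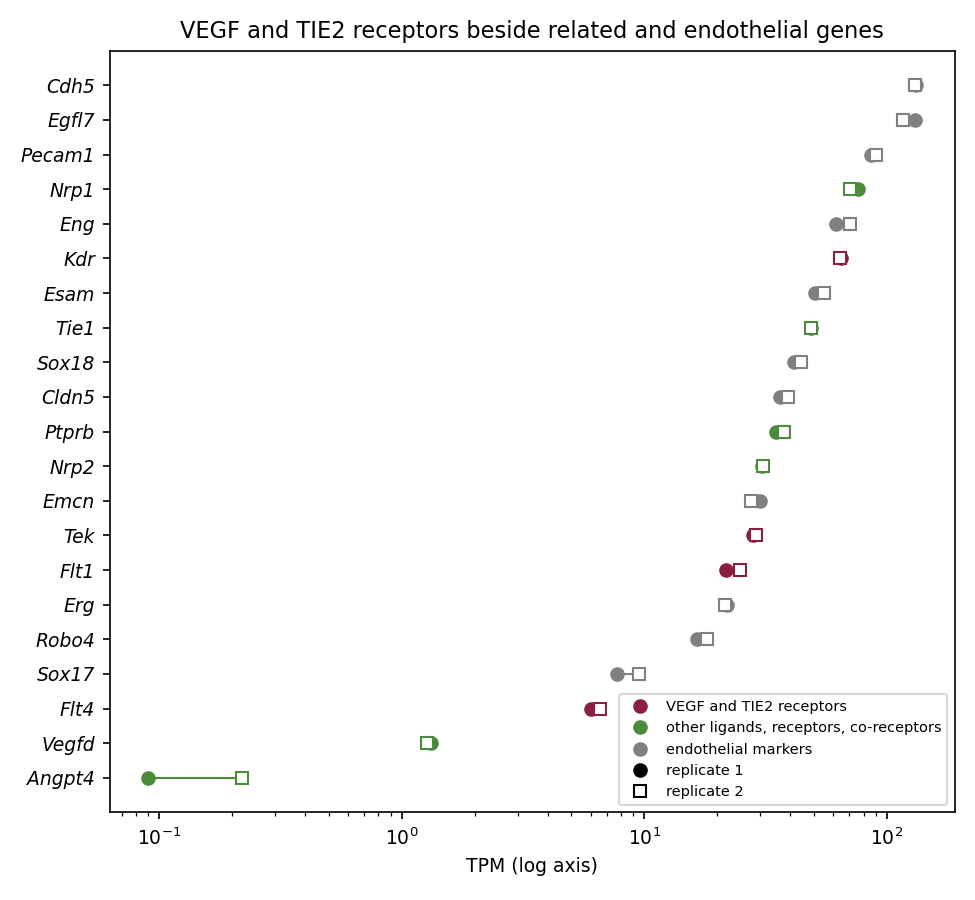
TPM (log axis) of the VEGF and TIE2 receptors (red), of related ligands, receptors and co-receptors (green) and of endothelial marker genes (grey), in replicate 1 (filled circles) and replicate 2 (open squares), from high to low. Kdr lies among the higher endothelial genes, Tek and Flt1 below the median one, and Flt4 below all endothelial genes shown.

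Of the related ligands, receptors and co-receptors, 5 of 6 were detected, and none passed the call between the hearts. Nrp1, the neuropilin co-receptor of Vegfa, had 76.06 TPM in replicate 1 and 70.37 TPM in replicate 2, above Kdr in each heart. Nrp2, the neuropilin that also serves Vegfc, had 30.65 and 30.77 TPM. Ptprb (VE-PTP), the endothelial phosphatase that acts on Tek, had 34.83 and 37.59 TPM, above Tek in each heart. Vegfd, the other lymphatic ligand, had 1.32 and 1.27 TPM. By adjusted p alone, Nrp1 was higher and Ptprb lower in replicate 1, with log2 ratios of 0.10 ± 0.023 and -0.17 ± 0.020.

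The genes that act downstream or upstream were taken as lists, with the same thresholds, and no gene of any list passed the 2-fold call. Of 22 VEGF receptor signalling genes, 21 were detected, with a median of 26.5 ± 0.113 TPM. They were led by Akt1, the survival kinase, at 142 ± 1.63 TPM, Rac1, a small GTPase of cell migration, at 134 ± 4.12 TPM, and Hspb1, a small heat shock protein, at 126 ± 9.71 TPM. By adjusted p, 3 were higher and 1 lower in replicate 1 of 21 tested, a share near the 17.3% of all genes tested, and the median log2 ratio was 0.028. Of 10 TIE2 signalling genes, 8 were detected, with a median of 21.3 ± 1.85 TPM. By adjusted p, 3 of 9 tested were lower in replicate 1, against 9.96% of all genes tested. Of these 3, 1 was below the detection level. Akt1 led again, followed by Grb14, an adaptor, at 58.6 ± 0.820 TPM and Ptpn11, the phosphatase SHP2, at 47.2 ± 8.81 TPM. Pik3r1, a regulatory subunit of PI3 kinase named after its values were seen, is counted as lower in both lists. It had 16.93 TPM in replicate 1 and 26.43 TPM in replicate 2 (exact binomial test, adjusted p = 7.1e-119).

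All 9 regulators of Vegfa RNA were detected, with a median of 46.9 ± 2.14 TPM. Epas1 (HIF2 alpha) led at 93.2 ± 5.26 TPM, followed by Zfp36l1, which destabilises messenger RNA, at 65.1 ± 5.33 TPM and Egln1, the oxygen-sensing hydroxylase, at 59.5 ± 6.79 TPM. By adjusted p, 1 was higher and 3 were lower in replicate 1, against 7.33% and 9.96% of all genes tested. Of 11 endothelial genes known to respond to VEGF, 9 were detected, with a median of 12.7 ± 0.495 TPM. Aplnr, the apelin receptor, led at 81.4 ± 9.78 TPM, followed by Rcan1, a calcineurin inhibitor, at 34.4 ± 2.79 TPM and Pdgfb, which recruits pericytes, at 22.0 ± 0.870 TPM. By adjusted p, 3 were higher and 1 lower in replicate 1, against the same 7.33% and 9.96%.

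Of 10 hypoxia response genes, 9 were detected, with a median of 11.98 ± 2.12 TPM. They were led by Ldha, lactate dehydrogenase A, at 378 ± 27.9 TPM. Next were Pdk1, a pyruvate dehydrogenase kinase, at 56.0 ± 5.98 TPM, and Bnip3, a mitophagy factor, at 41.1 ± 6.04 TPM. By adjusted p, 5 of 9 tested were lower in replicate 1 and 1 was higher, against 9.96% and 7.33% of all genes tested, with a median log2 ratio of -0.24. Vegfa, itself a hypoxia-responsive gene, had the log2 ratio of 0.12 given above, a size reached by 42.5% of detected genes. The part of hypoxia in these ratios was not tested.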

How the data were processed

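Total RNA-seq of 2 mouse hearts was analysed as 1 group of 2 animals. The authors deposited, on mm10 with GENCODE M21, a gene table and a first transcript table of expected counts, TPM and percent of gene TPM per the file headers (those RSEM writes), and a second transcript table of estimated counts and TPM (those kallisto writes). The name of each tool, its version and the counting strand is not given in the sources used here. Effective length is 99 bases under length in the first 2 tables and about 333.1 and 329.1 bases under it in the kallisto tables of replicates 1 and 2, so TPM is not on one scale in the 2 sets of tables. Reads were assigned on a C57BL/6J reference although the mice carry CAST/EiJ chromosomes, so reads with variants may be lost in both libraries. The 26248 entries with numeric identifiers (3.84 and 2.92 expected counts in replicates 1 and 2) and 97 spike-in entries were left out.

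Expected counts were rounded and compared by a two-sided, exact, conditional binomial test with TMM library sizes from edgeR 4.0.16 in R 4.3.3, a prior count of 0.5, and Benjamini-Hochberg adjustment over genes whose counts summed to 20 or more. edgeR's quasi-likelihood test could not be fitted with 1 group. Ratios used log2(TPM + 0.1). The test was checked on simulated counts drawn with counting error only, so the check does not cover spread between animals. Exon bases and gene positions come from GENCODE M21 by identifier. Named genes were the 10 genes, every gene of the related ligand and receptor list, the 3 highest of each other pathway list and the 2 highest of each marker list, and transcripts with at least 5% of the gene's TPM; Pik3r1 is outside this rule and was named after its values were seen. The genes and lists were chosen with earlier results of these data known. Alternatives were kallisto values, other scalings, filters, pseudocounts and fold thresholds, and each library alone. Python 3.11.15 ran with statsmodels 0.14.6, scipy 1.17.1, pandas 2.3.3, numpy 2.4.6 and matplotlib 3.10.9.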

Additional observations from a re-analysis of the deposited data

How the results depend on the processing

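No paired analysis was possible because there is 1 group of 2 libraries. The number of the 10 genes at 1 TPM or more was 9 to 10 over the alternatives (10 with kallisto and with TPM rescaled over protein-coding genes). The pairs apart numbered 11 with kallisto and with a pseudocount of 1 TPM and 13 with expected counts not scaled by length, which turned the log2 ratios of Vegfa to Vegfb to 0.40 and of Vegfa to Kdr to -1.12. That alternative ranks genes partly by length. Apartness has no value with 1 library left. Genes called between the hearts numbered 214 with RLE normalization, 214 with total counts, 247 with all genes, 227 with kallisto counts, 453 at 1.5-fold and 2856 without a fold. By adjusted p alone, 1645 genes were lower and 1211 higher in replicate 1 with TMM, against 1442 and 1415 with RLE and 1376 and 1500 with total counts. Of the 10 genes, 2 (Angpt1 and Pgf) were called at 1.5-fold and 4 without a fold, and 0 otherwise. The log2 ratio of Kdr between the hearts turned to 0.0062 with RLE and 0.011 with total counts. With kallisto counts Flt4 had an adjusted p of 0.0029 in the exact binomial test, and up to 0.114 under the other alternatives. The share of Vegfa coding transcripts with exon 7 alone was 49.96% with kallisto and 69.5% of expected counts, and 58.7% to 60.9% with either library alone. The share of Flt1 in Flt1-203 was 21.5% with kallisto, 20.3% of expected counts, and 18.3% to 20.2% with either library alone. The causes were not tested. Depth limits Pgf, Angpt2 and the non-coding transcripts of Angpt2 and Vegfc, which rest on few counts, and with 2 animals the SD is itself poorly known.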
